A study of Homo sapiens with 3 samples.

Results

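The aminoacyl-tRNA synthetase genes encode the enzymes that join each amino acid to its transfer RNA before translation. In the deposited table they were taken by gene symbol, as every symbol made of 1 letter followed by ARS or ARS2, together with *EPRS*, *FARSA* and *FARSB*. This gave 37 of the 23131 genes in the table, with 20 enzymes whose symbol does not end in 2 (called cytosolic here) and 17 whose symbol ends in 2 (mitochondrial). RNA came from HCT-116 cells, a colon carcinoma line labelled APC wild-type with a mutant β-catenin (CTNNB1ΔSer45). Cells received anti-*APC* siRNA, scrambled siRNA or no siRNA in 2 transfections and were harvested 48 hours after the last, with 1 library per condition. The control used here is titled untransfected, while its treatment label says that it received the transfection reagent alone. The library of cells with scrambled siRNA was not used here, so a difference between the anti-*APC* and the untransfected library includes any effect of siRNA delivery.

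Values are FPKM, fragment counts scaled for transcript length and library size, so levels can be compared between genes. Each condition is a single library, so differences lack replicates and no p-value is given. Where 2 values of a gene are given side by side, the untransfected control comes first. The table lists no read counts. If genes that are at 0 in only the opposite library are taken as 1 read each, the control held about 23700000 reads (88 genes, quartiles 12700000 and 25900000 reads) and the anti-*APC* library about 21600000 reads (84 genes, quartiles 12000000 and 23500000 reads). Each synthetase gene then rests on an estimated 264 to 19379 reads per library. The 95% intervals printed with the log2 ratios come from these estimates and cover counting error only. *APC* itself had 9.15 FPKM in the control and 3.43 FPKM under anti-*APC* siRNA. The epithelial markers *EPCAM* and *KRT8* were abundant in both libraries (190 and 588 FPKM in the control, 170 and 478 FPKM under anti-*APC* siRNA), and *CDH1* had 19.0 and 12.1 FPKM. *VIL1* was near 0 (listed at 0 in the control, 0.0313 FPKM under anti-*APC* siRNA), as were the immune marker *PTPRC* and the endothelial marker *PECAM1* (at most 0.0148 FPKM) and the T cell marker *CD3E* (0.0276 FPKM and listed at 0). Of the fibroblast collagens *COL1A1* had 2.85 and 3.08 FPKM, whereas *COL3A1* had 0.00685 FPKM in the control and was listed at 0 under anti-*APC* siRNA.

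Synthetases fall into class I and class II by the fold of their catalytic domain. In the cytosol, several of them are held in a multisynthetase complex by scaffold proteins. Mitochondria translate their own messages with enzymes that are encoded in the nucleus and imported. *GARS* and *KARS* each encode both the cytosolic and the mitochondrial form of their enzyme, although the symbol rule places them with the cytosolic genes. *QARS* has no mitochondrial counterpart, because mitochondrial glutaminyl-tRNA is made from glutamate by an amidotransferase.

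All 37 genes were expressed at more than 1 FPKM in both libraries, and the cytosolic enzymes were the more abundant group. In untransfected cells the 20 cytosolic genes had a median of 93.3 FPKM, from 32.4 FPKM for *CARS* to 183 FPKM for *IARS*. The 17 mitochondrial genes had a median of 18.3 FPKM, from 4.54 FPKM for *WARS2* to 99.7 FPKM for *IARS2*. With anti-*APC* siRNA the medians were 90.1 FPKM and 15.7 FPKM. The cytosolic median was thus 5.10 times the mitochondrial median without and 5.74 times with anti-*APC* siRNA. Of 11815 genes that reached 1 FPKM in each library (expressed genes below), the median cytosolic enzyme stood above 91.0% of genes in untransfected cells and the median mitochondrial enzyme above 57.4%. The ranges overlapped through few genes. *IARS2*, the mitochondrial isoleucyl enzyme, exceeded 12 cytosolic genes in untransfected cells. *CARS* was the only cytosolic gene below the next mitochondrial gene, *HARS2*, which had 35.3 FPKM.

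**Figure D1:**
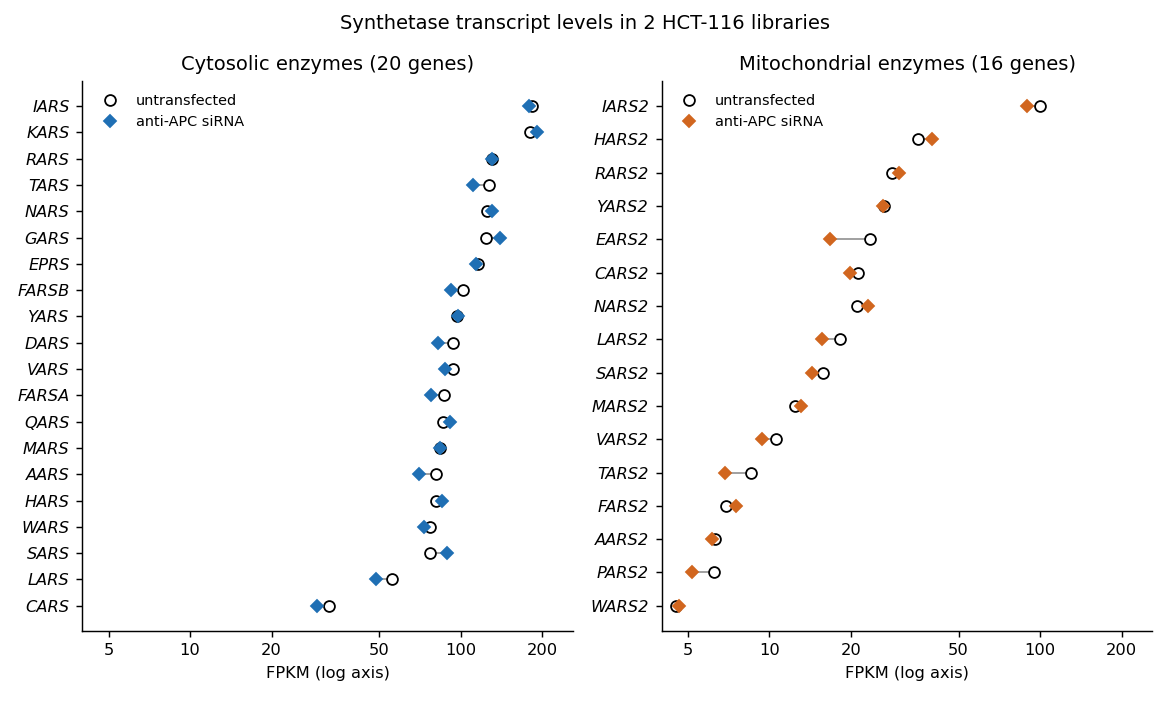
Level of 36 synthetase genes (20 cytosolic, 16 mitochondrial) in FPKM on a log axis, with open circles for the untransfected and filled diamonds for the anti-*APC* siRNA library (1 library each). The cytosolic genes lie between 29.3 and 191 FPKM and the mitochondrial genes between 4.54 and 99.7 FPKM, and the widest gap between the symbols is that of *EARS2*.

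*KARS* (lysyl; chromosome 16 of GRCh37, 75661372 to 75682541) had 180 FPKM in untransfected cells and 191 FPKM with anti-*APC* siRNA. *IARS* (isoleucyl; chromosome 9, 94972489 to 95056136) had 183 and 179 FPKM. These 2 enzymes led the cytosolic group in both libraries, and the small difference between them was in opposite directions in the libraries, so their order is not settled. *RARS* (arginyl) had 131 FPKM in each library, the next highest level in untransfected cells, whereas *GARS* and *NARS* were above it under anti-*APC* siRNA. At the other end *LARS* (leucyl) had 55.5 FPKM in the control and 48.4 FPKM under anti-*APC* siRNA, and *CARS* (cysteinyl; chromosome 11, 3022152 to 3078843) had 32.4 and 29.3 FPKM. The 15 cytosolic genes other than these 5 lay between 76.6 and 127 FPKM in untransfected cells. *FARSA* and *FARSB* encode the α and β subunits of the phenylalanyl enzyme, which pair in equal numbers in the protein. Their levels were 86.6 and 102 FPKM in untransfected cells, and *FARSA* stood at 0.848 of *FARSB* there and at 0.844 of it with anti-*APC* siRNA.

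For 14 amino acids the rule found 1 cytosolic and 1 mitochondrial gene. The cytosolic gene was the more abundant in all 14 pairs in each library. In untransfected cells the ratio within a pair ranged from 1.53 for *CARS* over *CARS2* to 16.9 for *WARS* over *WARS2*, with a median of 4.74. With anti-*APC* siRNA it ranged from 1.47 for the cysteinyl pair to 16.2 for the threonyl pair, with a median of 4.98. The pairs therefore differed far more from each other than any of them differed between the libraries. The threonyl (*TARS* and *TARS2*), alanyl (*AARS* and *AARS2*) and tryptophanyl pairs stood above 10-fold, each with a mitochondrial gene of fewer than 10 FPKM. The isoleucyl pair was close, at 1.83 and 2.00, and *IARS2* was the most abundant mitochondrial synthetase in both libraries. *EPRS*, which encodes glutamyl and prolyl synthetase in 1 protein, had 4.92 times the level of *EARS2* and 18.4 times that of *PARS2* in untransfected cells.

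**Figure D2:**
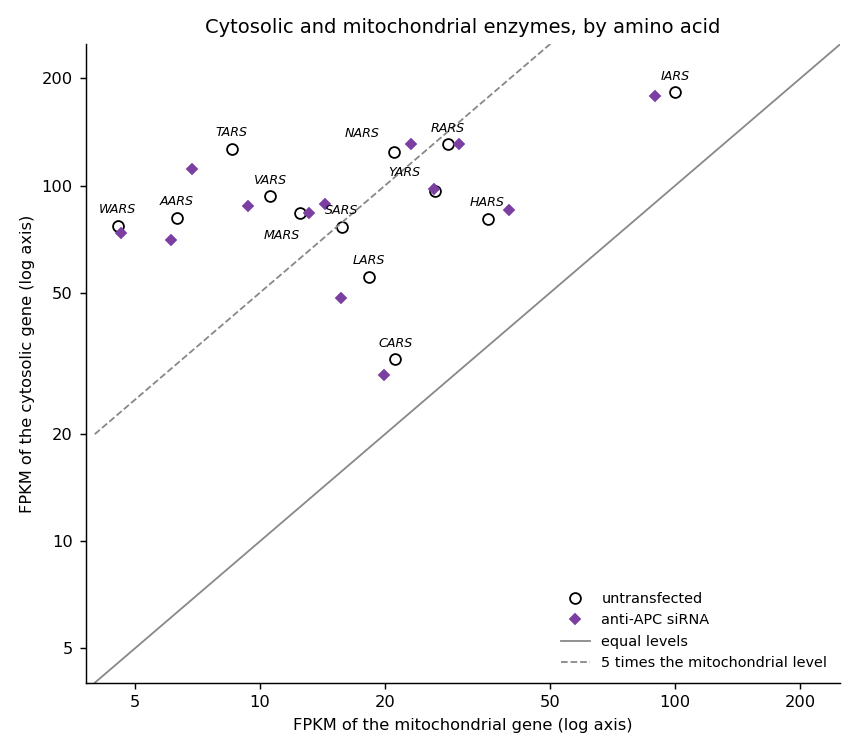
FPKM of the cytosolic gene against the mitochondrial gene for 13 of the 14 amino acids, both on log axes, with open circles for untransfected cells (labelled by the cytosolic gene) and diamonds for anti-*APC* siRNA. The solid line marks equal levels and the dashed line 5 times the mitochondrial level. All points lie above the solid line, and the 3 pairs farthest from it are those of *WARS*, *TARS* and *AARS*.

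After anti-*APC* siRNA no synthetase gene differed by 1.5-fold or more from untransfected cells, and 1 gene, *EARS2*, had a log2 ratio of 0.322 or more in size, the lower threshold used below. Among all 11815 expressed genes, 2.29% were at least 1.5-fold higher and 5.76% at least 1.5-fold lower. At a log2 ratio of 0.322 or more in size the shares were 6.86% and 17.5%. Of the 37 synthetase genes, 0 were higher and 1 was lower by that measure. The same count was taken over genes at similar levels, within limits chosen after the values were seen. In the range of the cytosolic enzymes 13.8% of 2826 genes passed the lower threshold in either direction, against 0 of the 20 enzymes. In the range of the mitochondrial enzymes it was 19.8% of 8343 genes, against 1 of 17. The median absolute log2 ratio was 0.09 over the cytosolic genes and 0.14 over the mitochondrial genes, beside 0.12 and 0.15 over all genes in the same ranges.

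**Figure D3:**
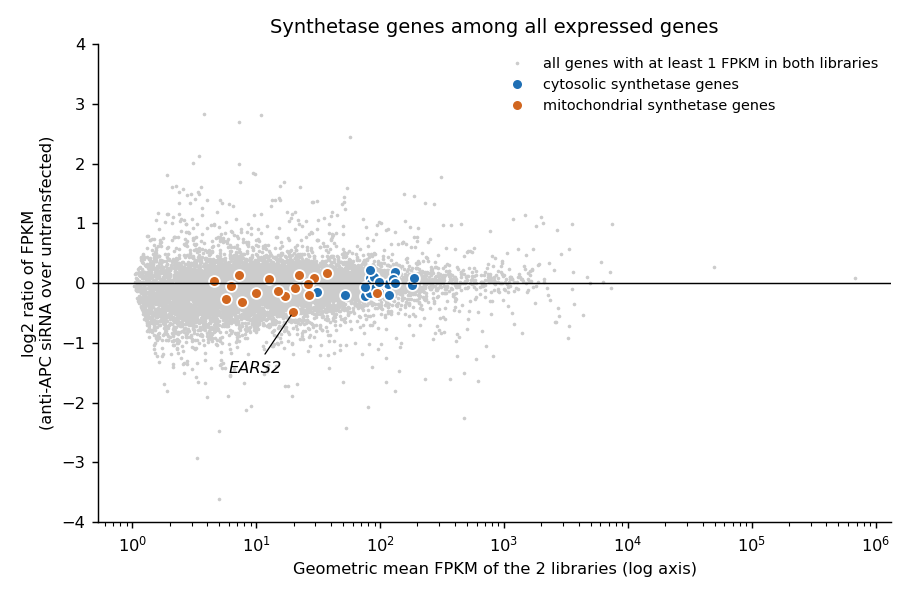
Log2 ratio of FPKM (anti-*APC* siRNA over untransfected) against the geometric mean FPKM of the 2 libraries on a log axis, with each gene of at least 1 FPKM as a grey dot and the synthetase genes in colour. The cytosolic genes sit between -0.21 and 0.21, and *EARS2*, at -0.49, is the synthetase gene farthest from 0.

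The direction of the groups was not settled. Over the 20 cytosolic genes the median log2 ratio was -0.03, with 8 genes above and 12 below 0. Over the 17 mitochondrial genes it was -0.09, with 6 above and 11 below. The median over all 11815 genes was itself -0.05, with 4917 above and 6898 below 0. When that median was subtracted the cytosolic median became 0.02, a change of sign, and the mitochondrial median became -0.04. Relative to all genes, 11 of 20 cytosolic and 8 of 17 mitochondrial enzymes were on the higher side. A difference of less than 1.1-fold was found for 11 of the 20 cytosolic and 9 of the 17 mitochondrial genes. Among all 11815 expressed genes it was found for 5069.

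**Figure D4:**
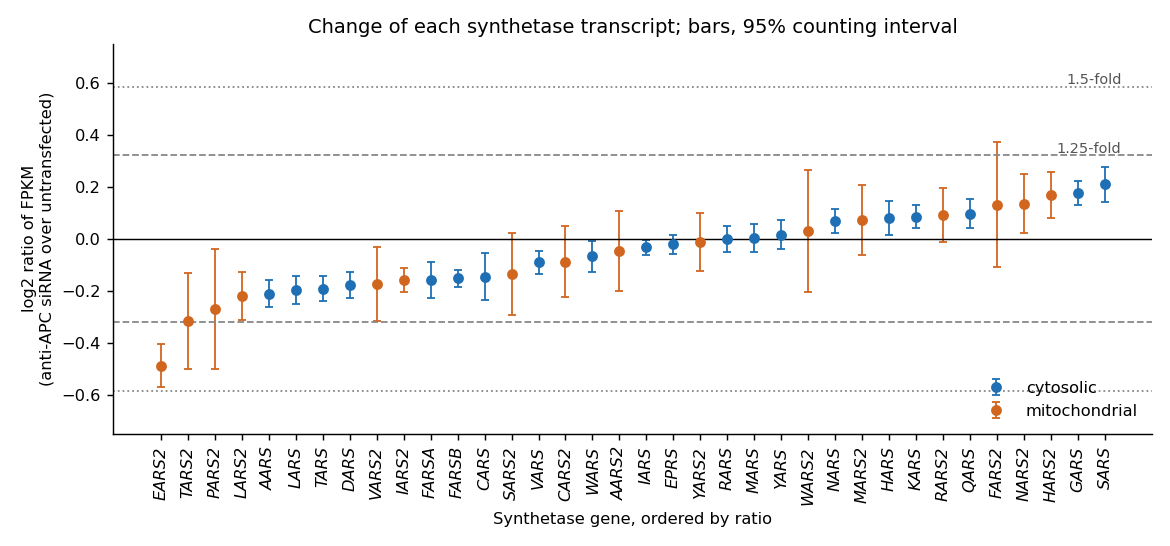
Log2 ratio of 36 synthetase genes, ordered by value, with bars for the 95% interval from estimated read counts (counting error only) and dashed lines at 0.322 above and below 0 and dotted lines at 1.5-fold. *EARS2* alone lies beyond the dashed lines, the 4 lowest genes are mitochondrial, and the genes above them are of both groups, with the highest 2 cytosolic.

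*EARS2* encodes the mitochondrial glutamyl enzyme, which charges the mitochondrial transfer RNAs of both glutamate and glutamine and so provides the substrate of the amidotransferase. It lies on chromosome 16 of GRCh37 from 23532075 to 23569052. It had 23.5 FPKM in the control and 16.8 FPKM under anti-*APC* siRNA, 0.713 times as much, for a log2 ratio of -0.49 (95% counting interval -0.57 to -0.40). Of all expressed genes, 8.75% had a log2 ratio at or below this value, so *EARS2* was low among synthetase genes and not rare among all genes. The genes on either side did not show the same difference: *GGA2* had 19.5 FPKM in the control and 21.8 FPKM under anti-*APC* siRNA, and *UBFD1* had 36.5 and 33.6 FPKM. The 3 subunits of the amidotransferase that acts after *EARS2* had ratios below 0, none of them past the lower threshold. So did 6898 of all 11815 expressed genes, whose median log2 ratio was -0.05. *QRSL1* had log2 ratio -0.15, *PET112* -0.20 and *GATC* -0.22.

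*TARS2*, the mitochondrial threonyl enzyme, was just short of the lower threshold. It had 8.56 FPKM in the control and 6.87 FPKM under anti-*APC* siRNA, a log2 ratio of -0.317 (counting interval -0.50 to -0.13). *PARS2*, the mitochondrial prolyl enzyme, had 6.27 and 5.19 FPKM, a log2 ratio of -0.27 (-0.50 to -0.04). The 4 lowest ratios among the 37 genes were all of mitochondrial enzymes, the fourth being that of *LARS2* at -0.22 (18.3 and 15.7 FPKM). Some of these genes were of low abundance, *PARS2* being the second lowest of the 17 mitochondrial genes in both libraries and *TARS2* the fifth lowest in untransfected cells. *WARS2*, the least abundant, with 4.54 FPKM in the control and 4.64 FPKM under anti-*APC* siRNA, had a log2 ratio of 0.03 (-0.20 to 0.27). On the higher side the largest mitochondrial ratios were 0.17 for *HARS2*, 0.14 for *NARS2* and 0.13 for *FARS2*, and the interval of *FARS2* reached from -0.11 to 0.37. Class did not separate the mitochondrial enzymes, with a median log2 ratio of -0.09 over the 9 of class I and -0.09 over the 8 of class II.

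*HARS* and *HARS2* are neighbours that are transcribed away from each other on chromosome 5 of GRCh37, *HARS* from 140052620 to 140071122 and *HARS2* from 140071015 to 140078890. *HARS* had 80.6 FPKM in untransfected cells and 85.2 FPKM with anti-*APC* siRNA. *HARS2* had 35.3 and 39.7 FPKM. Both were slightly higher with anti-*APC* siRNA, at log2 ratios of 0.08 (counting interval 0.01 to 0.15) and 0.17 (0.08 to 0.26). Their promoter windows in RefSeq, which run from 250 bases before to 50 bases after a start site, share 184 bases. The 84 bases between the start sites are shown because the upstream windows of both genes hold them. They are at chr5:140691371-140691454 of GRCh38.p14, on the strand of *HARS2*, with the letters TTCCGG or their reverse complement in capitals (the core letters of ETS factor motifs). These letters were not counted in other promoters, so no share stands beside them.

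HARS to HARS2: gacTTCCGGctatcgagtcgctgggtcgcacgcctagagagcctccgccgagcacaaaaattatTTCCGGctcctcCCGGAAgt

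The 8 enzymes of the multisynthetase complex (*EPRS*, *IARS*, *LARS*, *MARS*, *QARS*, *RARS*, *KARS* and *DARS*) had a median log2 ratio of -0.01. Of these 8, 6 differed by less than 1.1-fold, as did 5069 of all 11815 expressed genes. *EPRS* had 115 FPKM in the control and 114 FPKM under anti-*APC* siRNA, and *MARS* had 83.5 and 83.7 FPKM. *QARS* was the highest of them at 0.10 (85.6 and 91.5 FPKM) and *LARS* the lowest at -0.20. *DARS*, the aspartyl enzyme, had 93.3 and 82.4 FPKM, a log2 ratio of -0.18. The scaffold genes spread more widely than the enzymes. *EEF1E1* had 80.7 FPKM in the control and 98.5 FPKM under anti-*APC* siRNA, a log2 ratio of 0.29. *AIMP1* had a log2 ratio of 0.11 and *AIMP2* one of -0.23 (39.2 and 33.5 FPKM). None of the 3 passed the lower threshold.

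Among cytosolic enzymes the highest ratios were those of *SARS* and *GARS* and the lowest those of *AARS*, *LARS* and *TARS*. *SARS* (seryl; chromosome 1, 109756540 to 109780804) had 76.6 FPKM in the control and 88.6 FPKM under anti-*APC* siRNA, a log2 ratio of 0.21 (counting interval 0.14 to 0.28). *GARS* (glycyl; chromosome 7, 30620149 to 30673649) had 124 and 140 FPKM, a log2 ratio of 0.18 (0.13 to 0.22). *AARS* (alanyl; chromosome 16, 70285886 to 70323610) was lower, at 81.2 and 70.1 FPKM, with a log2 ratio of -0.21 (-0.26 to -0.16). *TARS* had 127 and 111 FPKM and a log2 ratio of -0.19. The 10 cytosolic genes of class II ranged from -0.21 to 0.21 and held both ends of the cytosolic order. The 10 of class I ranged from -0.20 to 0.10, and 8 of them differed by less than 1.1-fold, against 3 of class II. Among all expressed genes it was 5069 of 11815. No test of the contrast between the classes is possible, since genes are not replicates.

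*SARS* and its mitochondrial counterpart moved apart more than any other pair. *SARS2* had 15.8 FPKM in the control and 14.3 FPKM under anti-*APC* siRNA, a log2 ratio of -0.14 (-0.29 to 0.02), so the difference between the log2 ratios of the pair was 0.35. The table places *SARS2* at 1 locus with *MRPS12*, a mitochondrial ribosomal protein gene, which had 59.5 and 49.6 FPKM. In 10 of the 14 pairs the cytosolic and the mitochondrial gene differed in the same direction, 3 of them higher and 7 lower with anti-*APC* siRNA, some by as little as the 0.00 of *MARS*. With the median of all genes subtracted, 5 pairs were higher and 5 lower in both genes, so the excess of lower pairs depends on the centring.

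Cytosolic synthetases are well known as targets of ATF4, the transcription factor that raises amino acid synthesis, uptake and charging when amino acids are scarce. The 11 cytosolic enzymes listed as such targets (*AARS*, *CARS*, *EPRS*, *GARS*, *IARS*, *MARS*, *NARS*, *SARS*, *TARS*, *WARS* and *YARS*) had a median log2 ratio of -0.02 and a range from -0.21 to 0.21. Of these, 5 were above and 6 below 0, and 0 passed the lower threshold. *ATF4* had 236 FPKM in the control and 213 FPKM under anti-*APC* siRNA. Of the 21 genes listed for the ATF4 amino acid response, 19 were expressed. In this list 2 were at least 1.5-fold higher and 1 was at least 1.5-fold lower, against the 2.29% and 5.76% of all genes given above. *ATF3*, a stress-induced transcription factor, had 15.7 FPKM in the control and 31.1 FPKM under anti-*APC* siRNA, a log2 ratio of 0.99. *SESN2*, which senses leucine for mTORC1, had 4.21 and 7.55 FPKM, a log2 ratio of 0.84. *DDIT4*, an mTORC1 inhibitor, was lower, at 49.9 and 21.7 FPKM, a log2 ratio of -1.20. At the lower threshold 4 of the 19 were higher and 3 lower, beside 6.86% and 17.5% of all expressed genes. The other higher genes were *DDIT3* (log2 ratio 0.51) and *SLC7A11* (0.44), and the other lower ones *PHGDH* (-0.45) and *CEBPB* (-0.34). *ASNS*, the asparagine synthetase that is a standard readout of ATF4, had 50.8 and 44.9 FPKM and a log2 ratio of -0.18, and *TRIB3* had one of 0.02. *SHMT2* is listed at 0 in both libraries and is marked as failed in the table, so its level is unknown.

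*MARS* shares its locus in the table with *DDIT3*, which encodes the stress factor CHOP. *DDIT3* had 31.7 FPKM in the control and 45.3 FPKM under anti-*APC* siRNA, a log2 ratio of 0.51, while *MARS* had one of 0.00 (-0.05 to 0.06). *EPRS* and *IARS2* also share a locus, with *BPNT1* between them (18.4 and 19.7 FPKM). How the authors divided reads at the loci of these genes, of *IARS*, *SARS2* and *YARS* was not tested. *VARS* and *VARS2*, in the histocompatibility region of chromosome 6, are placed by the table on alternative haplotype sequences rather than on the main chromosome. They had log2 ratios of -0.09 (93.2 and 87.6 FPKM) and -0.17 (10.6 and 9.36 FPKM). Both are marked NOTEST in the table, the only 2 of the 37 genes not marked OK, and both enter the counts and medians. The other 35 genes were at the position that GENCODE 44 gives them on GRCh37.

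The promoters of the synthetases were searched because many of them share the ATF4 element. RefSeq windows were found for 30 of the 37 genes, 16 cytosolic and 14 mitochondrial. The letters TGATGNAA, the core of the C/EBP-ATF response element, were present on either strand in 8 of the 30 genes, 7 of them cytosolic. This was 26.7% of the genes, beside 3.62% of all 35116 windows and 2.44% of the 8102 expressed genes whose symbols matched. All of the 7 cytosolic genes are in the list of ATF4 targets above. The search was made because such genes are known to share the element, so this overlap was likely beforehand. Of the same list, *EPRS*, *SARS* and *WARS* had a window without a match, and *YARS* had no window. The matches are shown because 7 of 16 cytosolic and 1 of 14 mitochondrial promoters hold one. *IARS* also holds the E-box described next, which does not overlap its match. Each line gives 30 bases of GRCh38.p14 on the strand of the gene, with the match in capitals (TTGCATCA is TGATGCAA read on the other strand).

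AARS, chr16:70289675-70289704: ttttctcgcagTTGCATCAgccaagttaga

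CARS, chr11:3057407-3057436: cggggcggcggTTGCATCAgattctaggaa

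GARS, chr7:30594834-30594863: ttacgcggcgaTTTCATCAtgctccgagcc

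IARS, chr9:92293692-92293721: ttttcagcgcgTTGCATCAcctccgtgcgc

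MARS, chr12:57488053-57488082: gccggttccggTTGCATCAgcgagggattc

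NARS, chr18:57621804-57621833: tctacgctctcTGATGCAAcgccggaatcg

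TARS, chr5:33440956-33440985: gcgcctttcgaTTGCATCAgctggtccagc

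YARS2, chr12:32756076-32756105: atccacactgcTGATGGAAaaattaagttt

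The 8 genes with these letters did not share a direction. Their log2 ratios ranged from -0.21 for *AARS* to 0.18 for *GARS*, with a median of -0.02, beside a median of -0.01 over the 22 genes without a match. *NARS* had 125 FPKM in the control and 131 FPKM under anti-*APC* siRNA, and *YARS2* had 26.4 and 26.2 FPKM. *CARS* had a log2 ratio of -0.15. The matches in *CARS*, *MARS*, *NARS*, *TARS* and *IARS* lie within 15 bases of the start site, whereas that of *AARS* starts 187 bases before it.

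The E-box CACGTG is bound by MYC and MAX, and the paper uses the same letters as the motif of USF1 and USF2. It was present in 4 of the 30 genes (*CARS2*, *EARS2*, *IARS* and *MARS2*), 13.3% of them. It was present in 7.26% of all windows and in 13.1% of the matched expressed genes. The site of *EARS2*, the gene with the lowest ratio, is shown beside that of *MARS2*, a mitochondrial methionyl enzyme with 12.5 FPKM in the control and 13.1 FPKM under anti-*APC* siRNA.

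EARS2, chr16:23557348-23557377: cagggagaagccCACGTGtgctattccatc

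MARS2, chr2:197705346-197705375: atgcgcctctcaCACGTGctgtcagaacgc

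The E-box lies 15 bases before a start site in *EARS2* and 11 bases before it in *MARS2*, and the log2 ratios of the genes were -0.49 and 0.07. The letters ATCAAAG, the core of TCF motifs, and TGANTCA, that of AP-1 motifs, were in 0 of the 30 genes. They were in 2.62% and 7.71% of all windows and in 1.95% and 6.74% of the matched expressed genes. The count of 0 says only that these letters are not in the windows of the 30 genes. For TCF7L2 the paper counted WWCAAAG (W is A or T), a wider pattern that includes ATCAAAG and was not searched here.

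Genes that act beside the synthetases in charging were also compared. Their median absolute log2 ratio was 0.21, beside 0.14 over all 37 synthetase genes, and 2 of the 8 found in the table differed by less than 1.1-fold. Among all expressed genes 5069 of 11815 did. *TARSL2*, a threonyl enzyme outside the rule, had 6.39 FPKM in the control and 6.25 FPKM under anti-*APC* siRNA. *MTFMT*, which formylates the mitochondrial initiator, had 12.8 and 10.9 FPKM, a log2 ratio of -0.23. *SEPSECS*, which completes selenocysteinyl-tRNA, had 5.15 and 4.18 FPKM, a log2 ratio of -0.30. *TRNT1*, which adds the CCA end that synthetases charge, was the highest of this list at 0.24 (18.8 and 22.3 FPKM). Of the 8, 6 were below 0 and 0 passed the lower threshold, and their median log2 ratio was -0.18. Over all 11815 expressed genes 6898 were below 0 and the median was -0.05.

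**Figure D5:**
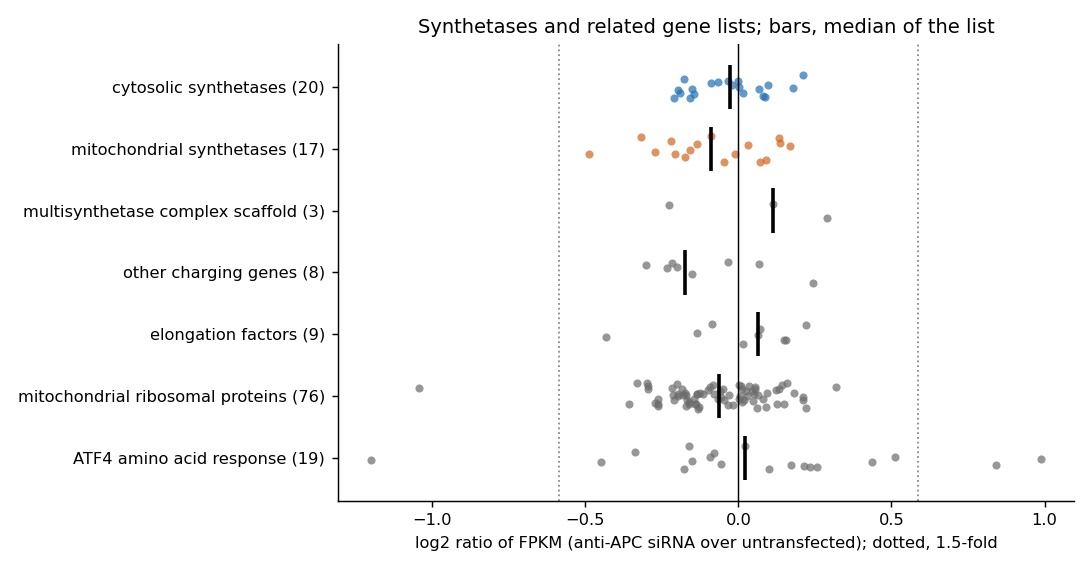
Log2 ratio of FPKM (anti-*APC* siRNA over untransfected) of each expressed gene, by list with the number of genes in parentheses; a black bar marks the median of a list and dotted lines mark 1.5-fold. No synthetase lies beyond the dotted lines, and the ATF4 amino acid response list spreads the most, from -1.20 to 0.99.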

How the data were processed

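RNA-seq libraries of HCT-116 cells were made with a single-read TruSeq kit, 1 per condition. The authors assigned reads with Cufflinks and compared libraries with Cuffdiff, on hg19 per the submitters' processing notes. The aligner, annotation and tool versions are not given in the sources used here. The deposited values are FPKM per gene symbol for 2 libraries, anti-*APC* siRNA and untransfected. The table also holds the authors' ratio, test statistic, p-value and q-value, which were not used. Log2 ratios were computed from FPKM without a pseudocount, over genes that reached 1 FPKM in each library, and calls were made at 1.5-fold. Depth was estimated from genes with 1 GENCODE 44 transcript of at least 1000 bases that were listed at 0 in the other library. Reads per gene followed from FPKM and the canonical transcript length, and depend on both. Of the 269 genes marked as failed, 269 are listed at 0 in both libraries. Synthetase genes, *APC* and the 2 neighbours of *EARS2* (chosen after its value was seen) were named. Of the other genes that share a locus with a member, only *BPNT1*, *DDIT3* and *MRPS12* were named. The values of 1 mitochondrial synthetase gene enter the counts and medians and are not reported here. From the other lists, members past 1.5-fold were named, with further members chosen after their values were seen. The members and lists were chosen with earlier results of these data known. Alternatives were other folds, pseudocounts, minimum levels, centring on the median of all genes, loci with 1 gene, pairs by amino acid, and *GARS* and *KARS* left out. The fold calls and the depth estimate were run on simulated data made under the same assumptions, which checks the code only. Motifs were searched on both strands of RefSeq promoter windows, matched by symbol or by a symbol with 1 added. Python 3.11.15, numpy 2.4.6, pandas 2.3.3 and matplotlib 3.10.9 were used.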

Additional observations from a re-analysis of the deposited data

How the results depend on the processing

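No paired analysis was possible because each condition has 1 library. A value was taken as moved when it changed by more than 0.07 on the log2 scale, the 95% counting half-width of a typical synthetase gene. At a threshold of 0.322 on the log2 scale (1.5-fold otherwise) the count of lower mitochondrial genes went from 0 to 1 (*EARS2*). Within pairs the cytosolic gene was a median of 4.74 times the mitochondrial gene in untransfected cells and 4.98 times with anti-*APC* siRNA, beside 5.10 and 5.74 from the medians of the groups. Centring turned the sign of the cytosolic median (from -0.03 to 0.02) and of 5 single genes. Over genes alone at their locus the cytosolic median was -0.08 and the mitochondrial median -0.05, so the order of the groups turned. At 2-fold, with a pseudocount of 1 FPKM and without a minimum level, the counts of genes past the threshold stayed at 0.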

Other observations

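The partners of the synthetases in translation were also measured. Of the 9 elongation factor genes, 1 had a log2 ratio of 0.322 or more in size. Among all expressed genes 6.86% were higher and 17.5% lower by that measure. The 1 gene was *EEF1A2*, the tissue-restricted form of the factor that carries charged transfer RNA to the ribosome. *EEF1A2* had 168 FPKM in the control and 125 FPKM under anti-*APC* siRNA (log2 ratio -0.43). Its widespread counterpart *EEF1A1* had 2348 and 2738 FPKM (log2 ratio 0.22). *TUFM*, the mitochondrial form, had 171 and 155 FPKM (log2 ratio -0.13), and *TSFM*, its exchange factor, had 33.9 and 37.6 FPKM (0.15).

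The 76 mitochondrial ribosomal protein genes had a median log2 ratio of -0.06, with 31 above and 45 below 0, beside 4917 above and 6898 below 0 among all 11815 expressed genes. Of these, 3 were lower by that much or more and 0 were higher, where 17.5% of all expressed genes were lower and 6.86% higher. *MRPL24* was the 1 gene past 1.5-fold (5.76% of all expressed genes were lower by as much), with 76.5 FPKM in the control and 37.1 FPKM under anti-*APC* siRNA (log2 ratio -1.04), a difference larger than that of any synthetase gene. *MRPL11* (58.7 and 45.8 FPKM) and *MRPL2* (38.7 and 30.7 FPKM) were the others. *MRPS30* was the highest, at 67.7 and 84.4 FPKM (log2 ratio 0.32).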
